A study of Mus musculus with 3 samples.

Results

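Kinesins are motor proteins that use ATP to move along or remodel microtubules. In dividing cells a group of mitotic kinesins builds the spindle, moves chromosomes and completes cytokinesis, and their genes are transcribed mainly from late S phase to mitosis. In neurons another group carries vesicles, mitochondria and RNA along axons and dendrites. Both kinds are at home in a medulloblastoma of the Sonic hedgehog type, a cerebellar tumour in which proliferating granule neuron progenitors and differentiating granule neurons lie side by side.

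The kinesin family was taken as every gene whose symbol is Kif followed by a number and at most one letter from a to c, which gave 34 of the 19744 genes in the tables. By known role they were sorted into 11 mitotic kinesins, 13 transport kinesins, 6 regulators of microtubule dynamics or signalling and 4 kinesins of cilia. The tumours were 3 G-Smo medulloblastomas of C57BL/6 mice with the genotype hGFAP-Cre/SmoM2, in which Cre driven by the human GFAP promoter switches on an active form of Smoothened in neural progenitors. All 3 mice carried the same alleles and had the same treatment, 5 daily intraperitoneal doses of 25 mg/kg palbociclib in the formulation POx-palbo from postnatal day 10, with harvest on day 16. Palbociclib inhibits the cell cycle kinases CDK4 and CDK6. Untreated tumours were not analysed here, so no value below measures an effect of the drug. Messenger RNA was counted as unique molecular identifiers (UMIs) per gene and cell barcode by Drop-seq, a droplet method that tags transcripts at their 3′ end.

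Barcodes with at least 200 counts were used, which were 1060, 148 and 1059 of the 8827, 2330 and 9802 barcodes in tumours 1, 2 and 3. The first split set barcodes with at least 1 count of Mki67 or Top2a, genes of proliferating cells, against barcodes with neither. The second set barcodes with a count of Neurod1, a transcription factor of differentiating granule neurons, against barcodes without it. Mki67 or Top2a was detected in 343, 58 and 377 barcodes and not detected in 717, 90 and 682. Neurod1 was detected in 330, 51 and 407 barcodes and not detected in 730, 97 and 652. At this depth a barcode without a count of a marker is not shown to lack its mRNA. Median counts per barcode were 447, 274.5 and 359 with Mki67 or Top2a, against 318, 246.5 and 284 without, so levels are given as counts per 1000000 counts of the set (CPM). They were 372.5, 253 and 316 with Neurod1, against 345, 256 and 294 without.

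Tumour 2 stood apart from the other tumours. It held 46315 counts in its selected barcodes, against 466239 and 398419 in tumours 1 and 3, and 55 of its 148 barcodes had more than 10% mitochondrial counts. Its Mki67- or Top2a-detected barcodes held 34.3 counts of 8 myeloid marker genes per 10000 counts, against 8.90 in its other barcodes and 4.27 to 8.15 in the sets of tumours 1 and 3. The number of kinesins called is therefore given with and without tumour 2 where that tumour changed it. Between 3 and 8 barcodes were shared by any pair of tables, none of them among barcodes of at least 200 counts.

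The mitotic kinesins had 1005 counts in the selected barcodes, 12 to 236 per gene, and the transport kinesins had 2782, up to 877 for Kif1b. The regulators had 497 counts and the ciliary kinesins 15. Kif17 was the member with no count in any selected barcode, and it had 1 count in all barcodes together. Since a 3′ tag counts a molecule once whatever its length, these sums are not scaled by transcript length.

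Both classes were present at every depth. In barcodes of 50 to 99 counts, mitotic kinesins made up 662 ± 117 CPM and transport kinesins 2049 ± 497 CPM (SD over 3 tumours). In the next classes, which begin at 100, 200 and 500 counts, mitotic kinesins averaged 728 ± 51.7, 982 ± 194 and 1133 ± 548 CPM. Transport kinesins averaged 2382 ± 275, 3110 ± 402 and 2309 ± 879 CPM in the same classes, so their highest mean was not in the deepest barcodes. In that deepest class tumour 2 had only 9 barcodes, and the spread between tumours was widest.

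Mitotic kinesin mRNA was concentrated in the barcodes with Mki67 or Top2a. The 11 genes summed to 2050, 1672 and 2230 CPM in barcodes of tumours 1, 2 and 3 with Mki67 or Top2a, against 332, 424 and 484 CPM in barcodes without. The sets did not overlap, and the difference was 2.27 ± 0.33 on the log2 scale (SD over 3 tumours). Transport kinesin mRNA differed the other way and by less. The 13 genes summed to 2616, 1716 and 2510 CPM with Mki67 or Top2a, against 3674, 3221 and 3148 CPM without, a log2 difference of -0.58 ± 0.30 (SD over 3 tumours). It was -0.24 ± 0.15 at a minimum of 100 counts per barcode and -0.28 ± 0.13 after each barcode was thinned to 200 counts. The mitotic difference was 1.75 ± 0.31 at 100 counts, 1.74 ± 0.19 after thinning and 3.45 ± 0.044 at 500 counts, where 2 tumours gave a value. Transport kinesin counts thus exceeded mitotic kinesin counts in every set of both splits in every tumour, by 472 against 370, 39 against 38 and 430 against 382 counts where Mki67 or Top2a was detected. With 3 tumours an exact two-sided sign-flip test cannot give a p under 0.25, so no test of the sums was made.

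**Figure D1:**
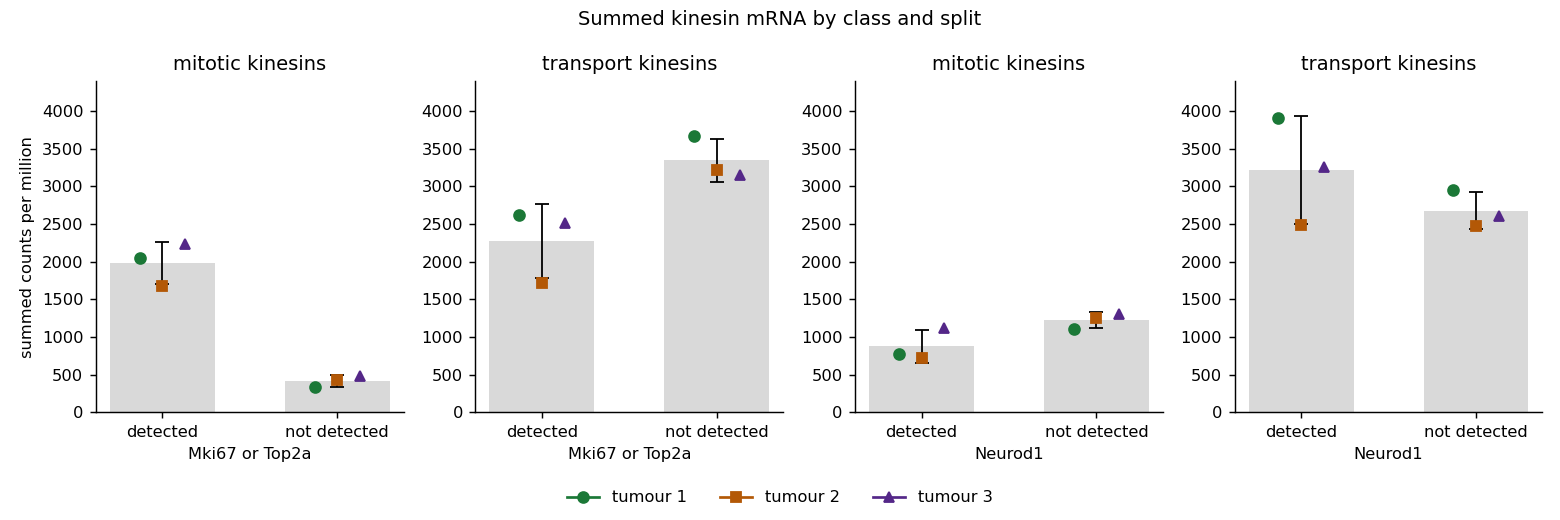
Summed kinesin mRNA (CPM) of the mitotic and the transport class in both splits, with 1 point per tumour, bars for the mean and whiskers for the SD (n = 3 tumours). Mitotic sums average 1984 CPM with Mki67 or Top2a and 414 CPM without, and no tumour's points overlap between those sets.

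Across all 3866 genes tested with edgeR's quasi-likelihood test and the tumour as a block, 78 (2.02%) were higher in Mki67- or Top2a-detected barcodes at an adjusted p under 0.05 and 34 (0.879%) were lower. Of the 11 mitotic kinesins, 7 passed the filter on low counts, and all 7 rose. A gene can pass that filter through its high set alone, so the same fit was read without the filter. There 86 of 16653 genes (0.516%) were higher, and 8 of the 11 mitotic kinesins were among them, the same 7 and Kif22, with a positive change for all 11 and a median log2 change of 2.46, against -0.10 for all genes. The direction held in each pair of tumours for the genes tested there. With tumour 1 or tumour 3 left out, the small tumour 2 was one of 2, and none of the 6 mitotic kinesins then tested was called. Those fits called 0.179% of all genes without tumour 1 and 0% without tumour 3, so hardly any gene could be called there. Without tumour 2, 8 of 9 were called, beside 2.52% of all genes then tested. DESeq2 (0.802% of all genes higher) and limma-voom (0.983%) each called 5 of the 7, all but Kif18a and Kif20a. DESeq2 gave no adjusted p for Kif18a and Kif20a, and limma-voom gave an adjusted p of 0.05339 for each. After thinning to 200 counts Kif20b was called of 2 tested, beside 1.81%.

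Kif11 and Kif15 are motors of spindle assembly. Kif11, the motor that slides antiparallel microtubules apart to make a bipolar spindle, had 355, 176 and 315 CPM in Mki67- or Top2a-detected barcodes, against 42.0, 170 and 61.6 CPM in the others. Its sets did not overlap, but in tumour 2 they were 4 counts each. Its log2 change was 2.47 (SE 0.35, adjusted p = 2.953e-05, edgeR). Kif15, which holds the bipolar spindle together with Kif11, had 405, 308 and 467 CPM with Mki67 or Top2a, against 73.5, 42.4 and 110 CPM without. Every tumour was higher in the detected set, on 7 counts against 1 in tumour 2. The log2 change was 2.27 (SE 0.27, adjusted p = 2.404e-06, edgeR).

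The chromosome motors behaved likewise. Kif4 is a chromokinesin that shapes chromosome arms and shortens midzone microtubules. It had 122, 352 and 187 CPM with Mki67 or Top2a, against 14.0, 42.4 and 22.0 CPM without. Tumour 2 was the highest in both sets, on 8 counts with Mki67 or Top2a and 1 without. Kif4 rose by 3.03 on the log2 scale (SE 0.51, adjusted p = 0.0003117, edgeR). Kif18a, which damps chromosome movements at the metaphase plate, had 111, 132 and 146 CPM with Mki67 or Top2a, against 21.0, 42.4 and 4.40 CPM without. This is a log2 change of 3.01 (SE 0.60, adjusted p = 0.002039, edgeR), with sets that did not overlap. Those sets held 3 counts against 1 in tumour 2, and 1 count without Mki67 or Top2a in tumour 3. Kif22, a chromokinesin that pushes chromosome arms toward the spindle equator, had 155, 44.0 and 158 CPM with Mki67 or Top2a, against 31.5, 0 and 48.4 CPM without. Its sets overlapped through tumour 2, which held 1 count of it in all, and it was called in the fit without a count filter (1.99 on the log2 scale, adjusted p = 0.008358, edgeR). The pseudogene Kif22-ps had 5, 1 and 2 counts in all barcodes, so how reads were divided between the copies is uncertain.

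The motors of the central spindle and cytokinesis completed the group. Kif23, the kinesin of the centralspindlin complex, had 222, 132 and 193 CPM with Mki67 or Top2a, against 35.0, 0 and 13.2 CPM without. Its log2 change of 3.08 (SE 0.48, adjusted p = 8.891e-05, edgeR) had sets far apart in tumours 1 and 3 and rested on 3 counts in tumour 2. Kif20a, which brings the chromosomal passenger complex to the midzone, had 72.0, 88.0 and 87.6 CPM with Mki67 or Top2a, against 17.5, 0 and 8.81 CPM without. It rose by 2.57 on the log2 scale (SE 0.68, adjusted p = 0.0288, edgeR) and had the weakest call of the 7. Kif20b, a late mitotic motor needed for cytokinetic abscission, had 477, 396 and 479 CPM with Mki67 or Top2a, against 73.5, 127 and 154 CPM without. It was the mitotic kinesin with the most counts, 236, and its log2 change was 2.08 (SE 0.27, adjusted p = 6.275e-06, edgeR).

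The remaining mitotic members were thinly covered. Kif14, a midbody kinesin, had 19 counts with Mki67 or Top2a against 4 without, in sets that did not overlap, and missed the threshold in the fit without a filter (2.66, adjusted p = 0.1369, edgeR). In tumour 2 Kif14 had 1 count against 0. Kif2c, a microtubule depolymerase at centromeres, had 33 counts against 12 (1.94, adjusted p = 0.1128, edgeR). Kif18b, a microtubule plus-end depolymerase, had 7 counts against 5 (0.97, adjusted p = 0.9915, edgeR).

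**Figure D2:**
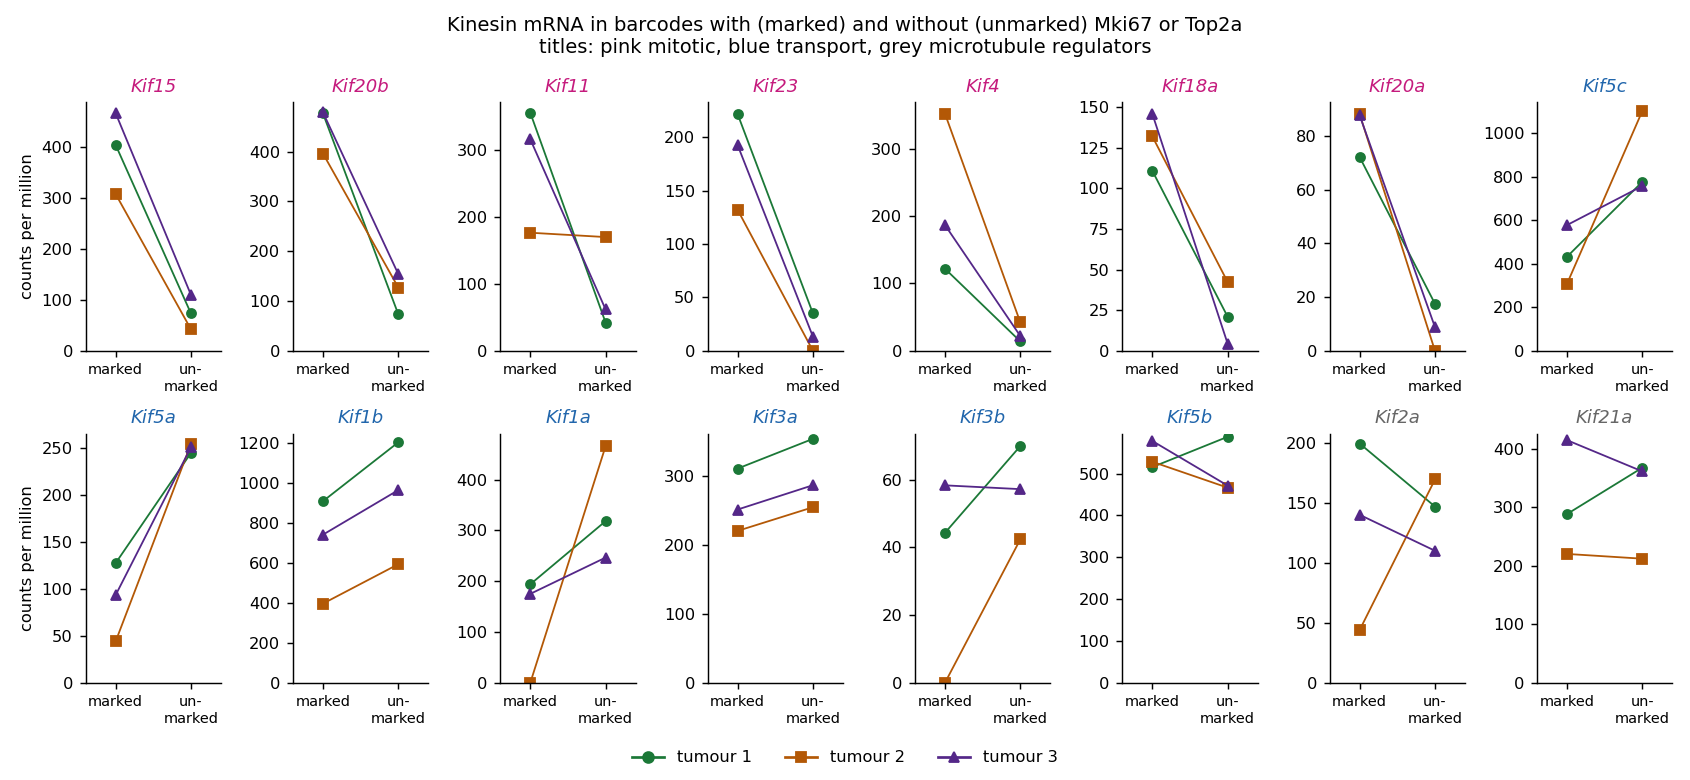
Level (CPM) of each of the 16 kinesins that passed the count filter, in barcodes with (marked, left) and without (unmarked, right) Mki67 or Top2a, with 1 line per tumour and a vertical axis from 0 in each panel. The 7 mitotic genes run from high to low in every tumour, Kif11 least clearly in tumour 2, while Kif5a and Kif5c run the other way in every tumour.

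The promoter windows of 6 of the 7 mitotic kinesins called with the count filter, all but Kif20a, are printed because these genes moved together. Cell cycle genes that peak in mitosis often carry a CHR element, bound by the DREAM complex and B-MYB, and a CCAAT box, bound by NF-Y. Genes that peak earlier often carry E2F sites. Windows of 250 bases before to 50 after each start in RefSeq's mouse annotation (GRCm38.p6) were searched on both strands for TTTGAA (CHR), CCAAT, and GGCGGGAA or TTGGCGC (E2F-like). A window was given for 28 of the 34 kinesins. The stretches run from 74 bases before to 26 bases from the start, 5′ to 3′ on the strand of the gene, with capitals for matches on either strand.
Kif11 (chr19:37376308-37376407, plus strand): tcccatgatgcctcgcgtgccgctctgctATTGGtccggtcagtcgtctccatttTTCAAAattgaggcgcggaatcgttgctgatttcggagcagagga
Kif15 (chr9:122951007-122951106, plus strand): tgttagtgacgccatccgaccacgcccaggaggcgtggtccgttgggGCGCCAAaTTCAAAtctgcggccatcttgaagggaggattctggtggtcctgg
Kif20b (chr19:34922284-34922383, plus strand): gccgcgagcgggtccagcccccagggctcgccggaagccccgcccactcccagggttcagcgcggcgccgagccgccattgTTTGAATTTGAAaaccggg
Kif23 (chr9:61946774-61946873, minus strand): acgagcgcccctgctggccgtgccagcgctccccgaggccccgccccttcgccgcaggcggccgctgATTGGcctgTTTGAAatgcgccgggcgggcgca
Kif4 (chrX:100625991-100626090, plus strand): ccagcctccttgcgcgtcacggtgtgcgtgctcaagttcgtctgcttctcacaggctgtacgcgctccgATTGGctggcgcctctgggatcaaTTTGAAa
Kif18a (chr2:109280664-109280763, plus strand): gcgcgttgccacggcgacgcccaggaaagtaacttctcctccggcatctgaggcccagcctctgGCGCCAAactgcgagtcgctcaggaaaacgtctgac
Kif5c (chr2:49619212-49619311, plus strand), a transport kinesin whose level differed the other way: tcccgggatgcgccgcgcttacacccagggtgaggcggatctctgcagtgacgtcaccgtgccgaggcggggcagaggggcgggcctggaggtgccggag

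In Kif15 the E2F-like match ends 1 base before the CHR match, and Kif20b holds 2 CHR matches end to end. Kif11, Kif23 and Kif4 pair a CCAAT match with a CHR match downstream. Kif18a has an E2F-like match and no CHR, and the Kif5c window has none of the motifs. Over whole windows, CHR was in 9 of 10 mitotic kinesin genes (90%) and 1 of 10 transport kinesin genes (10%, at a start of Kif1a), beside 20.2% of all genes in the promoter table and 14.4% of the genes that are also in the count tables. CCAAT was in 6 of 10 mitotic and 3 of 10 transport genes, beside 41.1% of the promoter table and 42.5% of genes also in the count tables. The E2F-like motif was in 2 of 10 mitotic and 0 of 10 transport genes, beside 5.22% of the promoter table and 8.95% of genes also in the count tables. Kif22, called without the count filter, held both CHR and CCAAT matches. A match describes these letters and shows no binding.

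**Figure D3:**
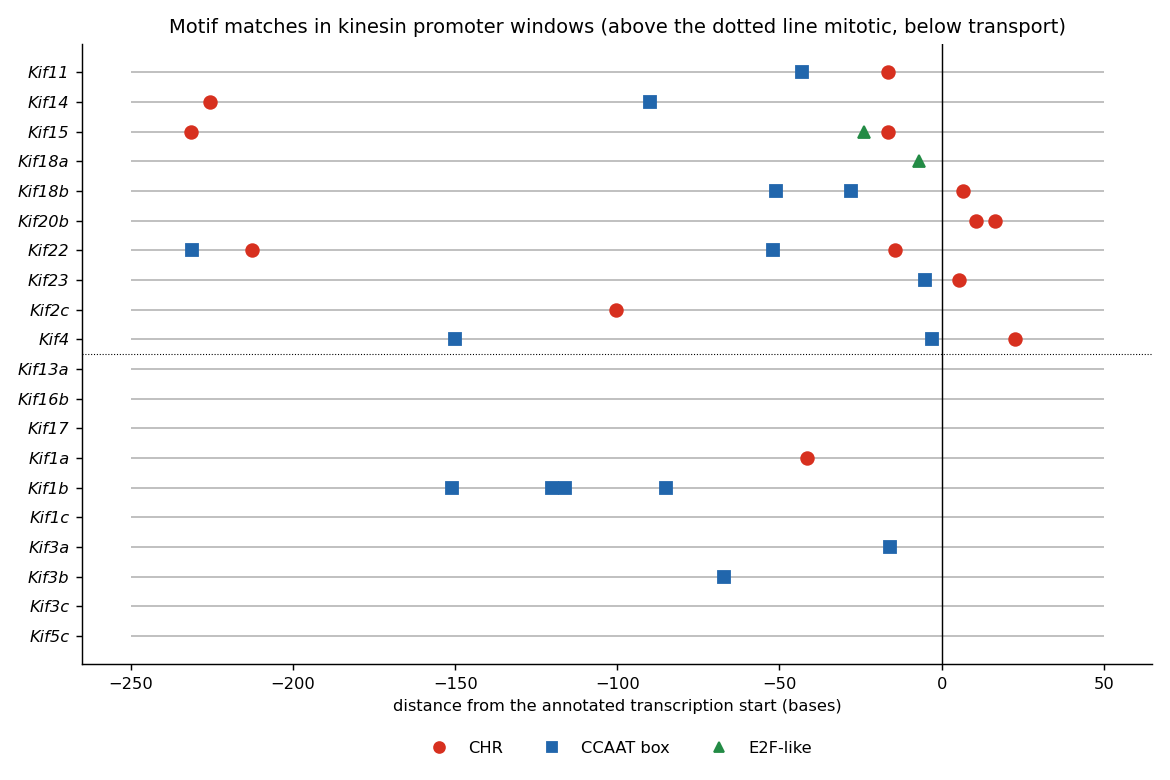
Positions of CHR (circles), CCAAT (squares) and E2F-like (triangles) matches in the RefSeq promoter windows of 10 mitotic (above the dotted line) and 10 transport kinesin genes, as distance in bases from the annotated start. CHR matches lie in 9 of the 10 mitotic windows, mostly near the start, and in 1 of the 10 transport windows.

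Genes that act with mitotic kinesins were mostly higher too. Of 27 partners on the list (spindle, kinetochore and cytokinesis genes), 24 were tested and 19 were higher with Mki67 or Top2a, beside 2.02% of all genes, and without the filter on low counts 21 of 27 were, beside 0.516%. The median log2 change of the 24 was 2.10, against -0.02 for all genes tested. The 5 with the smallest adjusted p were Cenpf, Prc1, Incenp, Cenpe and Aspm. Cenpf, a kinetochore protein, rose by 2.13 on the log2 scale (adjusted p = 6.813e-09, edgeR), and Prc1, which bundles midzone microtubules and binds Kif4, rose by 2.40 (adjusted p = 1.978e-08, edgeR). Incenp, the scaffold of the passenger complex, rose by 2.45 (adjusted p = 3.949e-08, edgeR). Cenpe, itself a kinesin under another symbol that carries chromosomes to the spindle equator, rose by 2.08 (adjusted p = 1.068e-07, edgeR). Aspm, a spindle pole protein, rose by 3.12 (adjusted p = 2.368e-07, edgeR).

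Single barcodes held several mitotic kinesins. At least 2 different mitotic kinesins were counted in 65 of 343, 6 of 58 and 73 of 377 barcodes with Mki67 or Top2a, against 7 of 717, 0 of 90 and 9 of 682 barcodes without. At least 2 different transport kinesins were counted in 94 of 343, 6 of 58 and 72 of 377 barcodes with Mki67 or Top2a, against 208 of 717, 12 of 90 and 125 of 682 without. These counts are not thinned, and the barcodes with Mki67 or Top2a were deeper. The barcode with the most, in tumour 1, held 18 mitotic kinesin counts from 9 of the genes among its 2219 counts, 3.87% of that tumour's mitotic kinesin counts. In tumour 2 a single barcode held 10.4% of them.

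Detection depends on depth, so shares of barcodes were compared after each barcode was thinned to 200 counts. A mitotic kinesin count was then present in 27.9% ± 3.42 of barcodes with Mki67 or Top2a in the thinned counts, against 9.27% ± 2.01 of barcodes without (SD over 3 tumours). Thinning moved some barcodes to the set without Mki67 or Top2a, which grew from 717, 90 and 682 to 806, 98 and 768. Unthinned shares were 43.8% ± 6.95 with Mki67 or Top2a and 10.6% ± 1.88 without. Among barcodes with at least 2 UMIs of myeloid markers, cells in which little mitosis is usual, it was present in 4 of 51 (7.84%, exact 95% interval 2.18 to 18.9%; median depth 465 counts). The 9.27% share lies within that interval. The myeloid-called barcodes were not split by Mki67 or Top2a, so they do not measure free RNA alone. Whether the mitotic kinesin counts without Mki67 or Top2a are free RNA was not tested. The other marker-called barcodes held a mitotic kinesin count in 24 of 158 (astrocyte), 5 of 54 (oligodendrocyte lineage), 3 of 20 (erythroid) and 0 of 13 (vascular, which allows up to 24.7%) cases. These intervals cover counting error only.

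A transport kinesin count was present in 38.0% ± 4.28 of thinned barcodes with Mki67 or Top2a, against 40.9% ± 4.15 without. Within tumours the share with Mki67 or Top2a was lower in each, by 2.52, 2.73 and 3.43 percentage points, and the counting intervals of the sets overlapped in each tumour. It was also in 39.6% ± 2.10 of barcodes that held a mitotic kinesin count, against 40.2% ± 4.87 of those that did not (SD over 3 tumours). Within tumours this second difference was -0.602 ± 4.72 percentage points (SD, n = 3), with tumour 2 the other way from tumours 1 and 3. Unthinned, the shares were 55.6% ± 11.4 with Mki67 or Top2a and 54.4% ± 11.5 without. Myeloid-called barcodes held a transport kinesin count in 15 of 51 (29.4%, exact interval 17.5 to 43.8%), an interval that takes in all 4 thinned shares. Kif5b is expressed in most cell types, so a count in these barcodes can be their own, and this share does not measure free RNA. Whether single counts of transport kinesins are free RNA was not tested.

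Of the 13 transport kinesins, 7 passed the filter on low counts and 2 fell in Mki67- or Top2a-detected barcodes, against 0.879% of all genes called lower. Both are heavy chains of kinesin-1, the main motor of fast axonal transport, and both are the neuron-enriched forms. Kif5c had 432, 308 and 578 CPM with Mki67 or Top2a, against 777, 1102 and 757 CPM without. Kif5a had 127, 44.0 and 93.4 CPM with Mki67 or Top2a, against 245, 254 and 251 CPM without. The sets of both genes were apart in all tumours, and in the sets with Mki67 or Top2a tumour 2 was the lowest, with 7 counts of Kif5c and 1 of Kif5a. The log2 change was -0.73 (SE 0.18, adjusted p = 0.01923, edgeR) for Kif5c and -1.23 (SE 0.31, adjusted p = 0.02109, edgeR) for Kif5a. Neither call was made by DESeq2 (adjusted p = 0.6056 for Kif5c and 0.4186 for Kif5a), which called 0.0776% of genes lower. Nor was either made by limma-voom, without the tumour block, at minimums of 100 or 500 counts per barcode, or after thinning. Neither was called within barcodes without Neurod1 or with tumour 1 or 3 left out, and Kif5a was not called with Top2a alone. With tumour 1 or 3 left out, 0% of all genes were called lower. Kif5c was -0.88 by DESeq2 and -0.67 within barcodes without Neurod1 (log2), and Kif5a was -1.33 by DESeq2 and -0.93 within those barcodes. At 100 counts Kif5c was -0.36 and Kif5a -0.87, at 500 counts -0.60 and -0.57, and after thinning -0.52 and -1.59. Kif5b, the kinesin-1 heavy chain that is expressed in most cell types, had 515, 528 and 578 CPM with Mki67 or Top2a, against 588, 466 and 471 CPM without. Its sets overlapped, with a log2 change of 0.05 (SE 0.18).

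Kinesin-3 motors carry synaptic vesicle precursors and other membrane cargo. Kif1b had 909, 396 and 741 CPM with Mki67 or Top2a, against 1204, 593 and 964 CPM without. It was lower in every tumour, with overlapping sets, and did not pass (-0.41, SE 0.15, adjusted p = 0.182, edgeR). Kif1a, the neuronal form, had 194, 0 and 175 CPM with Mki67 or Top2a, against 318, 466 and 247 CPM without. Its sets did not overlap, and it did not pass either (-0.80, SE 0.30, adjusted p = 0.2013, edgeR). The kinesin-2 motor subunits, which serve both cilia and axons, differed less. Kif3a had a log2 change of -0.20 (SE 0.23) and Kif3b of -0.40 (SE 0.56), with overlapping sets, and neither passed.

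The transport kinesins under the filter, Kif1c, Kif3c, Kif13a, Kif13b and Kif16b, had 5 to 29 counts each, and Kif17 had none. The same 2 transport kinesins were lower in the fit without a count filter, beside 0.228% of all genes, with a median log2 change of -0.68 for the 12 tested. Kif3c, a neuronal kinesin-2 subunit, had 5 counts with Mki67 or Top2a, against 21 without, in sets that did not overlap. In tumour 2 Kif3c had 0 counts against 1. Kif13b had 8 counts against 6 and was the transport kinesin whose sets did not overlap in the other direction. It had 2 counts against 0 in tumour 2 and 3 against 3 in each of tumours 1 and 3. The sets of 8 of 11 mitotic kinesins were apart and higher with Mki67 or Top2a, beside 2.88% of all genes with any count. Those of 4 of 13 transport kinesins were apart and lower, beside 3.34%. No gene of the 16 tested transport partners (adaptors, light chains and dynein subunits) passed, of 36 in the tables, and 2 had an unadjusted p under 0.05, beside 11.0% of all genes. Without the filter 0 of 35 passed, 3 with an unadjusted p under 0.05, beside 4.48% of all genes.

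Other measures moved with this split. Granule neuron markers (6 genes, 1 at 0 in each set of this split) summed to 9.31, 7.92 and 8.05 counts per 10000 with Mki67 or Top2a, against 19.2, 11.9 and 18.5 without. Oligodendrocyte lineage markers (6 genes, 1 to 3 of them at 0 in the sets with Mki67 or Top2a and 0 to 3 without) summed to 3.05, 2.20 and 3.68 counts per 10000 with Mki67 or Top2a, against 7.56, 19.5 and 4.49 without. The part of either list in the transport kinesin difference was not tested. Granule progenitor markers (7 genes) summed to 25.2, 22.4 and 22.1 counts per 10000 with Mki67 or Top2a, against 21.9, 17.0 and 20.3 without, so both sets carried markers of the labelled tumour. With barcodes called another cell type left out, 6 mitotic kinesins (3.21% of all genes higher) and both Kif5a and Kif5c (1.67% lower) were called. With mitochondrial shares over 10% and doublets left out, again 6 mitotic kinesins (2.72% of all genes higher), Kif5a and Kif5c (1.64% lower) were called.

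The microtubule regulators did not follow either class. Kif2a, a depolymerase that prunes neurites and also works at spindle poles, had 200, 44.0 and 140 CPM with Mki67 or Top2a, against 147, 170 and 110 CPM without (log2 0.28, SE 0.34). Kif21a, which restrains microtubule growth at the cell cortex, had 288, 220 and 414 CPM with Mki67 or Top2a, against 367, 212 and 361 CPM without (log2 -0.07, SE 0.22). Both overlapped between sets, and neither sign held under every setting. Kif21b, Kif24, Kif26a and Kif26b had 29, 12, 2 and 2 counts. Among ciliary kinesins, Kif7, a regulator of Hedgehog signalling at the cilium tip, had 6 counts with Mki67 or Top2a, against 5 without, and Kif6, Kif19a and Kif27 had 1 or 2 counts each.

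**Figure D4:**
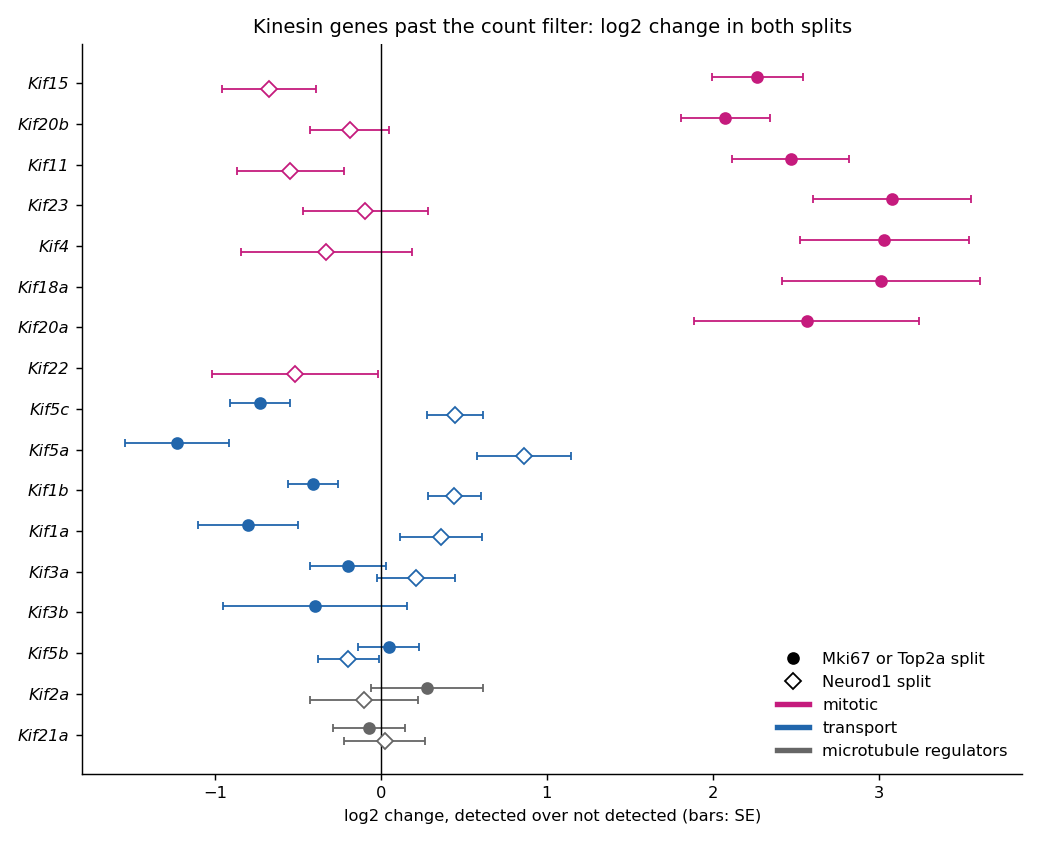
Log2 change, detected over not detected, of each kinesin that passed the count filter in the Mki67 or Top2a split (filled circles) and the Neurod1 split (open diamonds), with bars of 1 SE from edgeR. Mitotic kinesins lie at 2.08 to 3.08 in the Mki67 or Top2a split and below 0 in the Neurod1 split, and no Neurod1 change passed the test.

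In the Neurod1 split no kinesin was called over all barcodes of at least 200 counts in the 3 tumours. Mitotic kinesins summed to 776, 726 and 1125 CPM in Neurod1-detected barcodes, against 1105, 1258 and 1310 CPM in the others, a log2 difference of -0.51 ± 0.29. This difference was -0.073 ± 0.19 at a minimum of 100 counts, -0.27 ± 0.25 with barcodes called another cell type left out and -0.87 ± 0.45 after thinning. Transport kinesins summed to 3912, 2488 and 3257 CPM with Neurod1, against 2951, 2479 and 2612 CPM without, a log2 difference of 0.24 ± 0.21 (SD over 3 tumours, as for the mitotic sums). It was 0.029 ± 0.63 at a minimum of 500 counts and 0.47 ± 0.13 with barcodes called another cell type left out. In tumour 2 the transport sums were nearly equal, from 48 counts with Neurod1 and 67 without. Its Neurod1-detected barcodes held 37.3 myeloid, 22.8 oligodendrocyte lineage and 11.4 vascular marker counts per 10000, against 9.99, 2.59 and 2.96 in its others. With barcodes called another cell type left out, its transport sums were 3528 CPM with Neurod1 and 2347 CPM without, on 40 and 54 counts. The part of these cell types was not tested. After thinning to 200 counts, a mitotic kinesin was counted in 9.20% ± 4.90 of Neurod1-detected barcodes and 16.3% ± 1.45 of the others. A transport kinesin was counted in 44.1% ± 7.46 of Neurod1-detected barcodes and 38.8% ± 4.04 of the others. Sets were again called on the thinned counts. Within tumours the mitotic share was lower with Neurod1 by 6.69, 11.7 and 2.96 percentage points. The transport share with Neurod1 differed by 10.7, 5.74 and -0.391 percentage points, so tumour 3 went the other way. The unthinned mitotic shares were 18.2% ± 3.46 with Neurod1 and 24.4% ± 2.42 without, and the unthinned transport shares 62.5% ± 11.3 with Neurod1 and 50.8% ± 11.7 without. The thinned mitotic shares lie in the interval of the myeloid-called barcodes, as does the thinned transport share without Neurod1 in its interval. The transport share with Neurod1 lies just above the upper limit of 43.8%, at 52.7, 40.0 and 39.7% in tumours 1, 2 and 3. For transport kinesins the myeloid share does not measure free RNA.

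Among 3479 genes tested in this split, 28 (0.805%) were higher and 8 (0.23%) lower with Neurod1 in edgeR, and DESeq2 called none. Of the 14 kinesins tested, 0 passed in edgeR and 0 in DESeq2, and 4 had an unadjusted p under 0.05 in edgeR, beside 10.6% of all genes, and 0 in DESeq2, beside 2.3%. Kif5c had 815, 726 and 816 CPM with Neurod1, against 560, 703 and 587 CPM without, and its sets did not overlap, as in 2.51% of all genes with any count in that direction. Its log2 change was 0.45 (SE 0.17, adjusted p = 0.3129, edgeR). Kif5a had 283, 104 and 272 CPM with Neurod1, against 159, 185 and 123 CPM without, so tumour 2 went the other way, on 2 counts with Neurod1 and 5 without (0.86, SE 0.29, adjusted p = 0.1998, edgeR). Kif1b had 1322, 518 and 1063 CPM with Neurod1, against 977, 481 and 735 CPM without (0.44, SE 0.16, adjusted p = 0.2599, edgeR).

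These 3 transport kinesins passed when tumour 2 was left out, in a fit of tumours 1 and 3 that called 2.27% of 4628 genes higher. There Kif5a was 0.96 (adjusted p = 0.02558), Kif1b 0.47 (adjusted p = 0.01618) and Kif5c 0.50 (adjusted p = 0.03358, edgeR). With barcodes called another cell type left out and all 3 tumours kept, Kif1b (0.56, adjusted p = 0.01117) and Kif5a (0.98, adjusted p = 0.03007, edgeR) passed, beside 2.44% of all genes called higher. At a minimum of 100 counts per barcode Kif5a passed too (0.91, adjusted p = 0.01647, edgeR), beside 0.898% of all genes called higher. Kif1a had 335, 363 and 222 CPM with Neurod1, against 239, 148 and 211 CPM without, higher in each tumour with overlapping sets (0.36, SE 0.25). Kif3a (0.21, SE 0.24) did not pass, and Kif5b was lower in each tumour, at 513, 415 and 488 CPM with Neurod1, against 583, 555 and 537 CPM without (-0.19, SE 0.18). Its sets did not overlap, as in 3.07% of all genes with any count in that direction. In tumour 2 they held 8 counts with Neurod1 and 15 without. Kif5b did not pass (adjusted p = 0.7951, edgeR).

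All 6 mitotic kinesins tested had negative estimates at the minimum of 200 counts, from -0.67 for Kif15 (SE 0.28, adjusted p = 0.3743, edgeR) to -0.09 for Kif23. At a minimum of 100 counts 4 of them turned positive, Kif4 at 0.15, Kif20b at 0.12, Kif22 at 0.11 and Kif23 at 0.10, and without tumour 1 Kif15 was -0.24. Kif11 was the one whose sets did not overlap, at 151, 51.8 and 124 CPM with Neurod1, against 169, 259 and 203 CPM without. Beside it, 3.07% of all genes with any count had sets apart in that direction. Granule neuron markers summed to 25.2, 10.9 and 18.6 counts per 10000 with Neurod1, against 10.6, 9.25 and 10.9 without, and mitochondrial shares were 4.94, 7.75 and 5.37% with Neurod1, against 5.98, 13.5 and 6.93% without. The part of either in these values was not tested.

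Crossing the splits showed mitotic kinesin mRNA in barcodes that held Neurod1 together with Mki67 or Top2a. Their median counts were 476, 384 and 388, against 346, 243 and 301.5 in Neurod1-detected barcodes without Mki67 or Top2a. Doublets were kept in these sets. In tumour 2 the barcodes with both held 58.8 myeloid and 20.2 vascular marker counts per 10000, and 5 of 17 were called another cell type. Whether each barcode with both was a single cell was not tested. Within Neurod1-detected barcodes, mitotic kinesins summed to 1947, 1253 and 2313 CPM with Mki67 or Top2a, against 248, 112 and 390 CPM without, from 81, 17 and 121 against 249, 34 and 286 barcodes. Within barcodes without Neurod1 the sums were 2087, 2025 and 2182 CPM with Mki67 or Top2a, against 381, 613 and 559 CPM without. The log2 difference was 3.01 ± 0.46 with Neurod1 and 2.05 ± 0.37 without (SD over 3 tumours), and the value of tumour 2 with Neurod1 was 13 counts against 1. Transport kinesins were highest where Neurod1 was detected and Mki67 or Top2a was not. Within Neurod1-detected barcodes they summed to 2814, 1349 and 2718 CPM with Mki67 or Top2a, against 4407, 3813 and 3590 CPM without. Within barcodes without Neurod1 they summed to 2545, 2025 and 2392 CPM with Mki67 or Top2a, against 3249, 2862 and 2801 CPM without.

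**Figure D5:**
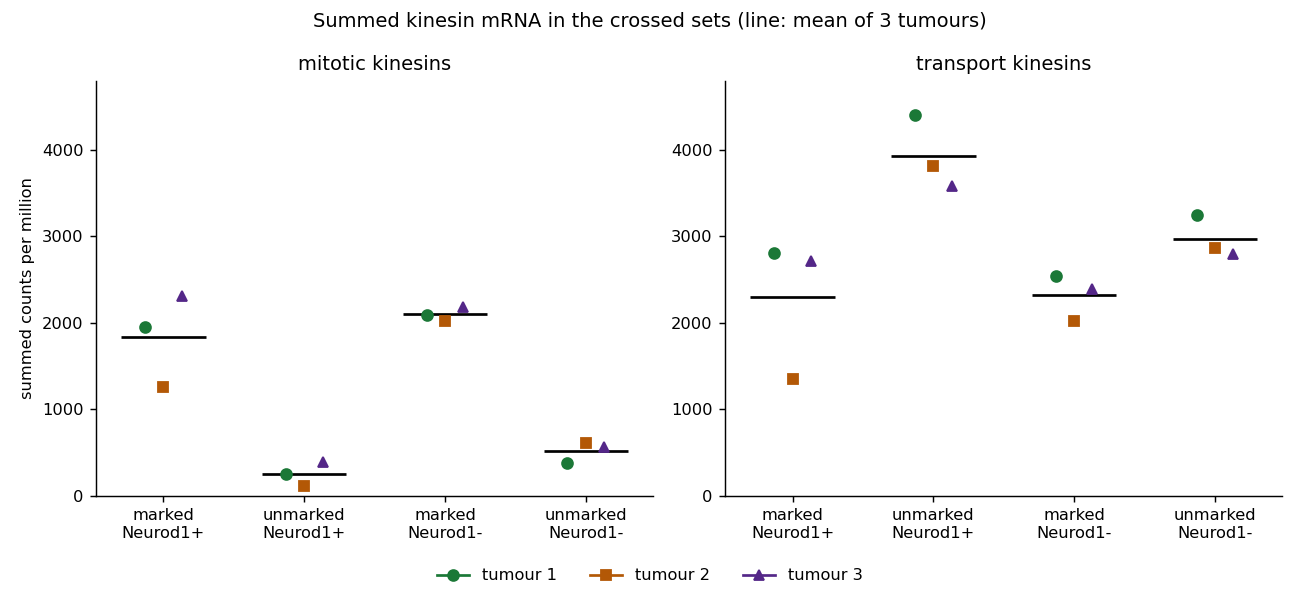
Summed kinesin mRNA (CPM) in the 4 sets made by crossing both splits, with 1 point per tumour and a line at the mean of 3 tumours. Mitotic kinesins follow Mki67 or Top2a (marked) with or without Neurod1, and transport kinesins are highest in unmarked Neurod1-detected barcodes, at 3590 to 4407 CPM.

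Whether the Mki67 or Top2a difference depended on Neurod1 was tested gene by gene with an interaction term. Of 2488 genes tested, 2 (0.0804%) were called and neither was a kinesin, 0 of 15 in all, and 1 kinesin had an unadjusted p under 0.05, beside 3.22% of all genes. That gene was Kif1a, named here after its values were seen. It had 84.6, 0 and 129 CPM in Neurod1-detected barcodes with Mki67 or Top2a, against 448, 785 and 280 CPM in Neurod1-detected barcodes without. In barcodes without Neurod1 it had 233, 0 and 201 CPM with Mki67 or Top2a, against 243, 273 and 220 CPM without. The interaction was -1.73 (SE 0.61, unadjusted p = 0.004395, adjusted p = 0.9997, edgeR).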

How the data were processed

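The deposited tables hold raw counts of UMIs per gene and barcode for 3 tumours of 1 treatment group. Papain dissociation and Drop-seq are given per the labels' protocols. STAR and Cell Ranger are named per the submitters' processing notes, with build GRCh38 and no versions, yet 18566 of 19744 symbols (94.0%, with 96.4% of the deposited counts) matched mouse gene names, as did all 34 kinesins. No authors' normalization is recorded. Totals were 1150463, 248617 and 1324350 counts, and every deposited barcode has at least 50 genes.

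Within each tumour the UMIs of a set were added up, so the replicate and block was the tumour, not the cell. Genes were tested with edgeR 4.0.16 (TMM, filterByExpr, quasi-likelihood test) with Benjamini-Hochberg adjustment over all genes tested. Genes that defined a split were left out of its test. Alternatives used DESeq2 1.42.0, limma 3.58.1 (voom), other filters, barcode minimums, thinning and marker definitions, in R 4.3.3 and Python 3.11.15 (scanpy 1.11.5). The sets pair by mouse, since both come from the same tumour. The script was tested on simulated data. It recovered 32.3% of simulated log2 changes of 1 in the Mki67 or Top2a split and 44.9% in the Neurod1 split. For changes of 2 it recovered 98.3% in each. A gene with a change of 1 or less can therefore go uncalled. Doublets were kept in the main sets; the alternative removed 97, 55 and 134 barcodes over 10% mitochondrial counts and 5, 0 and 20 doublets called by Scrublet afterwards, which in tumours 1 and 2 is close to none, so that caller had little effect there. Barcodes with at least 2 UMIs of myeloid, astrocyte, oligodendrocyte, vascular or erythroid markers (151, 22 and 106) were called another type. Every kinesin is accounted for, with values for those past the count filter; partners are named up to 5 per list by adjusted p. The members, classes and lists were chosen with earlier results of these data known, so their counts are descriptions.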

Additional observations from a re-analysis of the deposited data

How the results depend on the processing

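In the Mki67 or Top2a split, 34 genes (31 higher, 3 lower) were called by DESeq2, 48 (38 and 10) by limma-voom, 50 (46 and 4) with no replicate block, 170 at a minimum of 100 counts per barcode, 12 at 500, 28 after thinning, 68 within barcodes without Neurod1, and 0 to 169 with 1 tumour left out, against 112 in the main test. Without the tumour block, which pairs the sets of one mouse, 6 mitotic kinesins and 0 transport kinesins were called. Mitotic kinesins called numbered 0 to 8 with 1 tumour left out, 0 at 500 counts, where 0 were tested, and 1 of 2 tested after thinning. Transport kinesins called numbered 0 by DESeq2, by limma-voom, at 100 and 500 counts, after thinning and within barcodes without Neurod1, 1 with Top2a alone, and 0 to 2 with 1 tumour left out. DESeq2 gave no adjusted p for Kif18a and Kif20a. In the Neurod1 split the all-gene count was 0 by DESeq2 and with no replicate block, 11 by limma-voom, 12 at 500 counts, 66 after thinning and with mitochondrial and doublet filters, 112 with other cell types left out, and 0 to 155 with 1 tumour left out, against 36. At 100 counts the all-gene count was 51. Transport kinesins called in this split numbered 1 at 100 counts (Kif5a), 2 with other types left out and 0 to 3 with 1 tumour left out. The interaction called 0 genes at 100 counts and 0 to 2 with 1 tumour left out. The mean log2 ratio of summed mitotic kinesins for Mki67 or Top2a was 1.75 at 100 counts, 3.45 at 500 (2 tumours), 1.74 after thinning and 2.09 to 2.41 with 1 tumour left out; that of transport kinesins was -0.24 at 100 counts and -0.70 to -0.41. For Neurod1, mitotic sums were -0.073 at 100 counts, -0.87 after thinning and -0.65 to -0.36; transport sums were 0.029 at 500 counts, 0.47 with other types left out and 0.16 to 0.36. All sign changes were of uncalled genes. For Mki67 or Top2a, Kif21a was 0.052 at 100 counts, 0.15 after thinning, 0.059 with mitochondrial and doublet filters, 0.071 with Top2a alone and 0.0061 within barcodes without Neurod1, and -0.28 to 0.17 with 1 tumour left out; Kif2a was -0.10 to 0.39 with 1 tumour left out; Kif3a was 0.019 after thinning and 0.027 with Mki67 alone; Kif5b was -0.011 at 500 counts, -0.042 with Mki67 alone and -0.089 to 0.26 with 1 tumour left out. For Neurod1 at 100 counts, Kif20b was 0.12, Kif22 0.11, Kif23 0.10, Kif2a 0.21 and Kif4 0.15. Kif20b was 0.075 at 500 counts, Kif2a 0.024 with mitochondrial and doublet filters and 0.10 within barcodes without Mki67 or Top2a, and Kif3a -0.040 after thinning and -0.020 to 0.57 with 1 tumour left out. Kif21a for Neurod1 was -0.040 with no filter on low counts, -0.25 by DESeq2, -0.081 with no replicate block, -0.51 after thinning, -0.016 with other types left out and -0.48 to 0.13 with 1 tumour left out. The cause of these differences was not tested. Depth limits all of this: at 500 counts 311, 9 and 184 barcodes remained.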
